A study of Homo sapiens with 30 samples.

Results

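Epithelial-mesenchymal transition (EMT) is the shift of a cell from an adherent epithelial state to a motile mesenchymal one. A set of genes that drive, oppose or mark it were examined in prostate cells that express the ETS transcription factor ERG, activated AKT or both. These 10 genes, of the 26255 genes of the expression table, were picked by name with earlier results of these data known. They are the mesenchymal filament gene VIM, the mesenchymal cadherin gene CDH2, the transcription factor genes ZEB1, ZEB2, SNAI1, SNAI2 and TWIST1, and the epithelial regulators ESRP1, ESRP2 and OVOL1.

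RWPE1 is an immortalized line of normal human prostate epithelium. RNA-seq covered 4 RWPE1 lines, each with 3 libraries. All carried a pair of retroviral constructs: RWPE1-Vector held the empty pQCXIH and pBabe-puro, RWPE1-ERG held pQCXIH-ERG and pBabe-puro, RWPE1-mAKT held pQCXIH and myristoylated AKT (mAKT, a constitutively active form), and RWPE1-ERG+mAKT held ERG and mAKT. ATAC-seq, which maps open chromatin, gave a peak list for each line with a transgene (labelled RWPE1+mAKT where mAKT was alone), made from cells with the same constructs. Chromatin immunoprecipitation (ChIP-seq) gave lists of ERG in RWPE1-ERG+mAKT and in vehicle-treated VCaP cells, a prostate cancer line that carries a TMPRSS2/ERG rearrangement. It also gave lists of the repressive histone mark H3K27me3 in cells with pQCXIH, pQCXIH-ERG or pQCXIH-ERG S96E alone, without the pBabe construct. S96E is a phosphomimetic change at the ERK site of ERG. The kinase ERK2 was mapped in the first 2 of these lines.

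Expression is given as FPKM, fragments scaled by transcript length and by library size, pooled by the authors over the 3 libraries of a line. The values used here are therefore 1 per line, with no spread between libraries, and the read depth behind them is unknown. No test was run on them, and the tests that the table holds for pairs of lines were not used. Each peak list comes from 1 library, and nothing here can separate a difference between lines from a difference between libraries. Because each line is a single transduced population, an effect of the construct and a difference between populations cannot be told apart. ERG itself had an FPKM of 0.264 in vector, 358 in ERG, 0.435 in mAKT and 328 in ERG+mAKT cells. AKT1 had values of 58.7, 64.2, 156 and 281 in the same order, so the transgenes followed the labels. The basal prostate genes KRT5, KRT14 and TP63 and the epithelial genes CDH1 and EPCAM were expressed in every line. The summed FPKM of the 3 basal genes was 6098 in vector, 1891 in ERG, 6208 in mAKT and 4742 in ERG+mAKT cells, and that of the luminal list, almost all KRT8 and KRT18, was 1439, 3612, 1657 and 1879. The keratins thus differed most in the ERG line, where VIM and CDH2 were highest, and their part in the results was not tested. The luminal gene KLK3 was listed at 0 in all lines. The summed FPKM of 7 fibroblast genes lay between 1.95 and 2.31 over the 4 lines, almost all of it COL1A1, and the leukocyte gene PTPRC was at most 0.00391. In such bulk samples fewer cells that express a gene and less RNA per cell cannot be told apart.

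ERG binds DNA through the ETS core GGAA, often beside the AP-1 sequence TGAGTCA. ZEB and SNAI factors bind the E-box CAGGTG and repress epithelial genes such as CDH1. ESRP1 and ESRP2 direct the epithelial splicing of transcripts such as FGFR2 and CD44, and OVOL1 is an epithelial zinc finger factor that opposes ZEB1. Vimentin forms the intermediate filaments of mesenchymal cells, and it is also made by many cultured epithelial cells.

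The sequences of ERG peaks called near these genes are shown first, most of them weak calls as described below. In RWPE1-ERG+mAKT cells 1 ERG peak each lay within 20 kb of VIM, ZEB1, ZEB2, SNAI1, ESRP1 and ESRP2. That is 6 of the 10 genes, against 26.1% of 22377 genes under the same rule. It was 25.7% of the 18070 genes with a span between those of the shortest and longest member. That range takes in most genes, so the share is not matched for gene length, and longer genes have wider windows. CDH2, SNAI2, TWIST1 and OVOL1 had none. In the sequences below, read from hg19 on the strand of the gene, capitals mark searched sequences on either strand. The ETS core searched was AGGAAG, which reads CTTCCT from the opposite strand. The E-box was CAGGTG, which reads CACCTG from the opposite strand, and the AP-1 sequence was TGAGTCA.
VIM, chr10:17258345-17258453, plus strand: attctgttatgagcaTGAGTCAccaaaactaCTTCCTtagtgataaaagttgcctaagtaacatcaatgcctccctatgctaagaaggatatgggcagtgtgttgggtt
ZEB1, chr10:31700865-31700973, plus strand: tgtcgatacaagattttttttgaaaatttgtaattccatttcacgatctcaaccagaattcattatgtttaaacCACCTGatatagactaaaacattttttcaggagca
ESRP2, chr16:68268071-68268179, minus strand: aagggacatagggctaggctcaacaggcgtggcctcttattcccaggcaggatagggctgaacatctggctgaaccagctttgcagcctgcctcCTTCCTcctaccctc

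The VIM peak held both TGAGTCA and AGGAAG. It lay 11.8 kb upstream of the VIM start, over an exon of the antisense transcript VIM-AS1, and VIM was the nearest start of a protein-coding gene. Its summit at position 17258378 fell within AGGAAG, and TGAGTCA began 18 bases to the left of it. Within 100 bp of their summits, 8.45% of all 9113 ERG peaks held TGAGTCA, 25.8% held AGGAAG and 3.26% held both. AGGAAG was searched after the sequence had been seen. The cores CCGGAA and CAGGAA, searched first, occurred in 29.9% of those windows and were absent from the VIM window. The VIM peak had a fold enrichment of 4.70 over input and a q-value of 0.0461, and 12.4% of all ERG peaks had an enrichment as high. It overlapped an ATAC peak in all 3 lists, as did the ESRP2 peak in an exon of ESRP2, 1.91 kb from its start. The share of all ERG peaks that overlapped an ATAC peak of RWPE1-ERG+mAKT cells was 18.5%.

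The other ERG peaks lay in no ATAC peak of the 3 lists. The ZEB1 peak was in an intron 92.8 kb from the start with a fold enrichment of 3.53, and the ZEB2 peak was in an intron 63.3 kb from the start with 4.11. The SNAI1 peak lay 13.9 kb downstream of the start with a fold enrichment of 2.94, and the ESRP1 peak lay in an intron 29.0 kb from the start with 2.82. None of the 6 peaks reached a q-value of 0.01, which 450 of the 9113 peaks did. The q-value was 0.206 for the ZEB2 peak and 0.701 for both the ZEB1 and the ESRP2 peak. The SNAI1 and ESRP1 peaks had a q-value of 1, the highest of the 6. Of the ETS cores searched first, CCGGAA was in 0 and CAGGAA in 1 of the 6 windows, and 29.9% of all peak windows held either. TGAGTCA was in 1 and AGGAAG in 2 of the 6, beside 8.45 and 25.8% of all peak windows. CAGGTG was in the windows of 3 of the 6 peaks, beside 15.5% of all peak windows. It lay 4 bases from the ZEB1 summit and 82 bases from the ZEB2 summit.

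In VCaP cells OVOL1 had 2 ERG peaks and ESRP1 had 1, and the other 8 genes had none. These 2 of 10 genes compare with 18% of all genes. The OVOL1 peak in the gene, 4.71 kb from the start in an intron, had a fold enrichment of 3.97 and a q-value of 0.00388. It was the only ERG peak of either list near these genes with a q-value under 0.01, and it held CCGGAA and AGGAAG (capitals).
OVOL1 in VCaP cells, chr11:65559139-65559340, plus strand: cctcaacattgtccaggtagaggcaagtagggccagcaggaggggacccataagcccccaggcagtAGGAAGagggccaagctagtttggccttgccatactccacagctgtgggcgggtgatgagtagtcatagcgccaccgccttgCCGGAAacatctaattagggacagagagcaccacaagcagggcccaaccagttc
The second OVOL1 peak, 12.7 kb upstream, overlapped an exon of the neighbouring gene AP5B1, whose start was the nearest. No ERG peak of RWPE1-ERG+mAKT cells lay within 20 kb of OVOL1.

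The first question was how the RNA of these genes differed with ERG and mAKT, alone and together. VIM and CDH2 were highest in ERG cells and lowest in the lines with mAKT, OVOL1 and SNAI1 were highest in ERG+mAKT cells, and ESRP1, ESRP2 and TWIST1 stayed within a range of 1.5-fold over all 4 lines. Ratios below are on the log2(FPKM + 1) scale, which understates the change of genes with low FPKM. A gene was called at 2-fold on that scale among the 12670 genes whose FPKM reached 1 in some line, which 8 of the 10 genes did. ZEB1 and ZEB2 stayed below it in all 4 lines, and SNAI1 and OVOL1 passed it through the ERG+mAKT line alone, so that a difference was built into their passing.

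**Figure D1:**
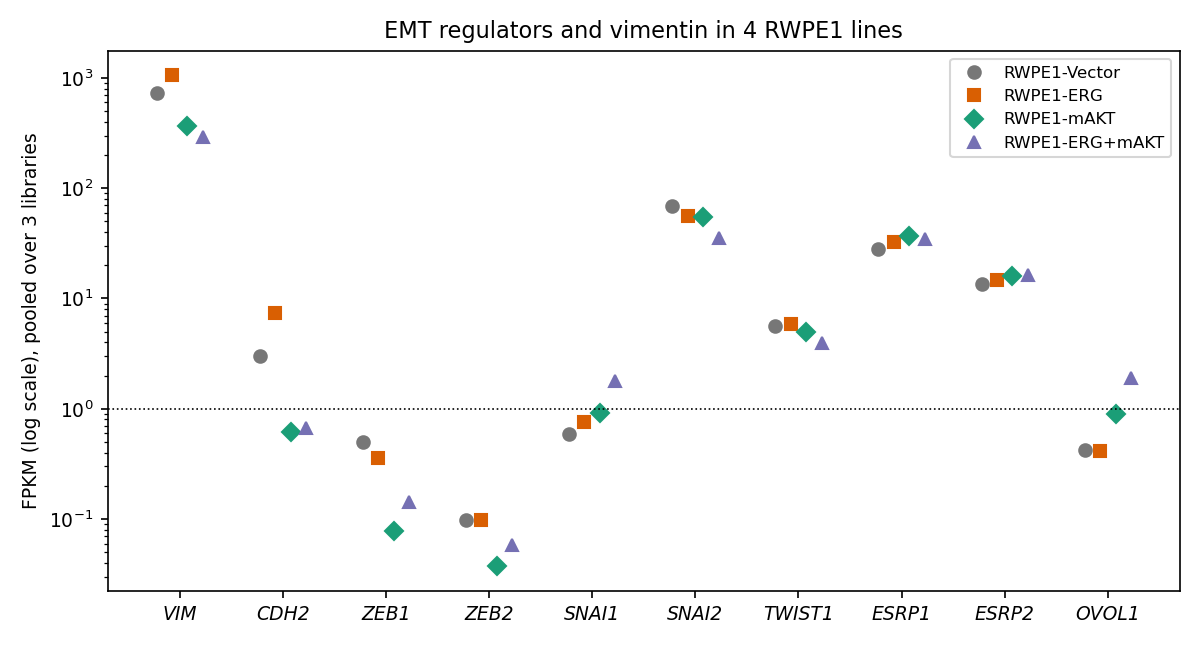
FPKM of the 10 genes on a log axis, with 1 point per RWPE1 line pooled over 3 libraries and no error bar; the dotted line is an FPKM of 1. VIM and CDH2 stand higher in the vector and ERG lines than in either mAKT line, and ZEB1 and ZEB2 stay under 1 in all lines.

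VIM, the gene of vimentin, had an FPKM of 737 in vector, 1056 in ERG, 366 in mAKT and 288 in ERG+mAKT cells. It was the most abundant of the 10 transcripts in every line, above 98.6% of all genes even in the line where it was lowest. The log2 ratio was 0.52 for ERG over vector, -1.01 for mAKT over vector, -1.87 for ERG+mAKT over ERG and -0.34 for ERG+mAKT over mAKT. VIM was thus higher in ERG than in vector cells and lower in ERG+mAKT than in mAKT cells. For ERG+mAKT over mAKT 63.6% of all genes tested also lay below 0. These 2 lines differed in AKT1 as well (281 and 156), and its part was not tested. The VIM ratio of mAKT over vector lay just past the 2-fold limit. The antisense VIM-AS1 overlaps the 5′ part of the table's VIM locus, and the strandedness of the libraries was not given in the sources used here. Its FPKM was between 1.13 and 2.71 in the 4 lines.

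CDH2 encodes N-cadherin, the cadherin that mesenchymal cells carry in place of E-cadherin. Its FPKM was 3.04 in vector, 7.38 in ERG, 0.610 in mAKT and 0.666 in ERG+mAKT cells, a 12.1-fold range that was the widest of the 10 genes. The log2 ratio was 1.05 for ERG over vector and -1.33 for mAKT over vector. Between the 2 lines with mAKT CDH2 hardly differed (log2 ratio 0.05), while ERG+mAKT cells had 11.1-fold less FPKM than ERG cells, a log2 ratio of -2.33 on the scale with the pseudocount.

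Among the transcription factors, SNAI2 (Slug) was the main factor in RNA. Its FPKM was 68.5 in vector, 55.9 in ERG, 54.9 in mAKT and 35.0 in ERG+mAKT cells. The ERG+mAKT line was the lowest, with log2 ratios of -0.66 over ERG and -0.63 over mAKT, short of 2-fold. TWIST1, a helix-loop-helix factor, had values of 5.66, 5.89, 4.95 and 3.97 in the same order. SNAI1 (Snail) had values of 0.591, 0.756, 0.914 and 1.77, so only the ERG+mAKT line passed an FPKM of 1, and its log2 ratio over ERG was 0.66. Of these paralogs, which share the SNAG repressor domain, SNAI1 was thus highest and SNAI2 lowest in ERG+mAKT cells, and the reverse held in vector cells.

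ZEB1 and ZEB2, zinc finger repressors of epithelial genes, were close to the bottom of the range. ZEB1 had an FPKM of 0.501 in vector, 0.361 in ERG, 0.0772 in mAKT and 0.142 in ERG+mAKT cells. ZEB2 had values of 0.0983, 0.0989, 0.0374 and 0.0585. Both were higher in the 2 lines without mAKT than in the 2 lines with it. These values are low, their depth is unknown, and on the log2(FPKM + 1) scale the largest difference was -0.48, for ZEB1 with mAKT over vector.

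The epithelial regulators were steadier, with 1 exception. ESRP1 had an FPKM of 28.3 in vector, 32.8 in ERG, 36.8 in mAKT and 34.6 in ERG+mAKT cells, and ESRP2 had 13.5, 14.8, 16.0 and 16.2. Neither passed a log2 ratio of 0.37 in any of the 4 comparisons. OVOL1 had values of 0.422, 0.411, 0.898 and 1.92, and its log2 ratio of ERG+mAKT over ERG was 1.05. In the table ESRP2 shares a merged locus with a neighbouring gene, so reads of that gene could enter its value.

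For ERG over vector 1 of the 8 genes that passed the filter was called, CDH2, which was higher, against 4.55% of all genes tested called in either direction and 3.58% called higher. For mAKT over vector 2 were called, VIM and CDH2, both lower, against 1.96% in either direction and 0.813% lower. For ERG+mAKT over ERG 3 were called, VIM and CDH2 lower and OVOL1 higher, against 4.49% in either direction, 2.47% lower and 2.02% higher. OVOL1 passed the filter through the ERG+mAKT line alone, so the direction of its call was built in. For ERG+mAKT over mAKT none was called, against 2.9%. The comparisons share lines, so a value that is high in 1 line enters 2 of them. The ratio of CDH2 for ERG over vector fell under 2-fold (log2 0.99) when the lines were scaled by their upper quartiles. The median log2 ratio of these 8 genes was 0.14, 0.04, -0.20 and -0.04 in the order given, beside -0.01, 0.02, -0.04 and -0.07 over all genes tested.

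**Figure D2:**
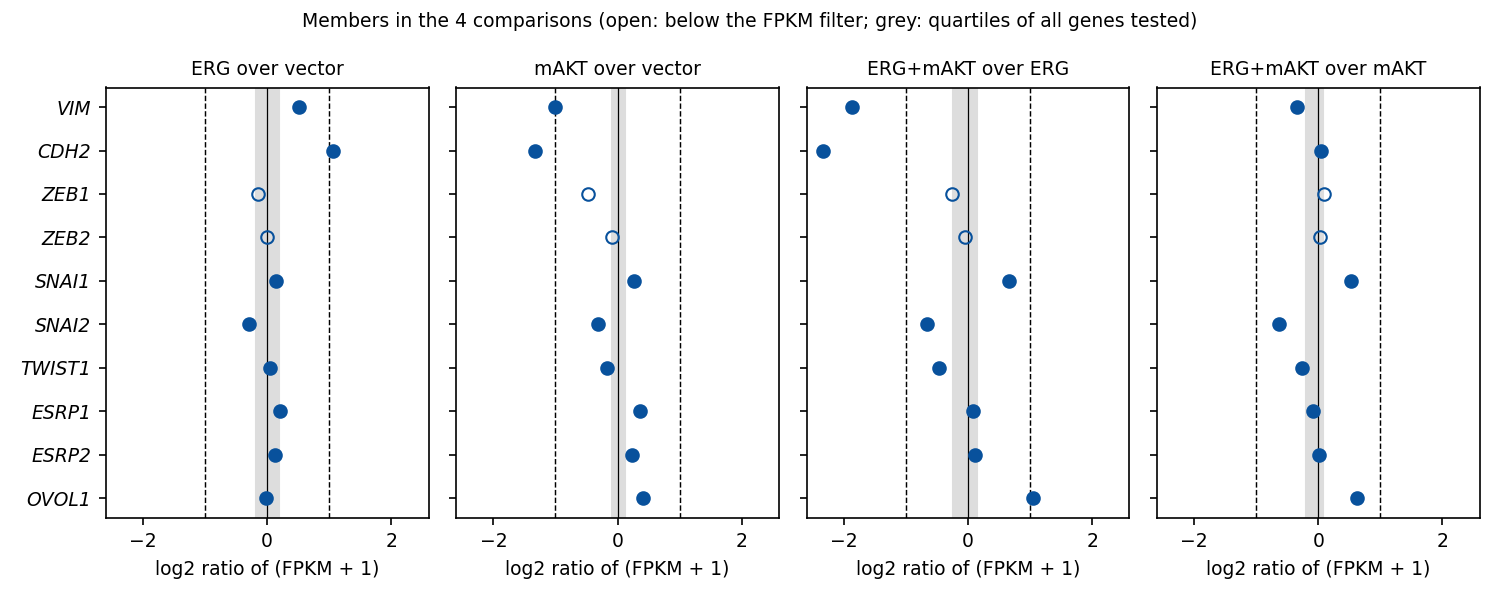
Log2 ratio of (FPKM + 1) for each of the 10 genes in the 4 comparisons; dashed lines mark 2-fold, the grey band runs from the lower to the upper quartile of the 12670 genes tested, and open circles are ZEB1 and ZEB2, below the FPKM filter. VIM and CDH2 lie left of the band in both comparisons that add mAKT, and CDH2 and OVOL1 pass the right dashed line in 1 comparison each.

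The levels were ordered alike in all lines at the top. VIM, SNAI2, ESRP1 and ESRP2 held the first 4 places by FPKM, a measure per length of transcript, and ZEB2 held the last in every line. With no spread between libraries, neighbours such as SNAI2 and ESRP1 in ERG+mAKT cells (35.0 and 34.6) cannot be ordered.

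The genes most like VIM over the 3 lines relative to vector were MIR8072, CDH4, SNORA71E, TUBA1A and ACAA2, of 9315 genes that reached an FPKM of 5. CDH4 encodes R-cadherin, and TUBA1A encodes an alpha-tubulin. Likeness is the largest difference from VIM in the log2 ratio to vector, which was 0.22 for MIR8072 and 0.36 for CDH4. MIR8072 and SNORA71E are genes of small RNAs, which poly(A)-selected libraries do not measure well. With an FPKM limit of 20, 2 of these 5 genes were still named. CDH4 had an FPKM of 4.66 in vector, 8.79 in ERG, 2.17 in mAKT and 1.84 in ERG+mAKT cells.

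The wider set of EMT genes was read through named lists. The mesenchymal effector list holds matrix, protease and receptor genes downstream of the transition. Of its 22 genes 19 passed the filter. For ERG over vector none was lower by 2-fold and 7 were higher, among them FN1, SPARC, COL5A1, LOXL2, THBS1 and AXL, and the median log2 ratio was 0.40. Over all genes tested 3.58% were called higher there. In the list 14 genes lay above 0 and 5 below, where 48.1% of all genes lay above 0. The lowest was CDH11 at -0.89, with an FPKM of 3.51 in vector and 1.44 in ERG cells. For mAKT over vector none was higher and 3 were lower, SPARC, TNC and CDH11, beside 0.813% of all genes, with a median of -0.28. For ERG+mAKT over ERG none was higher and 7 were lower, beside 2.47% of all genes, with a median of -0.80. In that comparison 18 of the 19 genes lay below 0, as did 56.4% of all genes. For ERG+mAKT over mAKT only FN1 was called, lower, beside 0.868% of all genes, and the median was -0.12.

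FN1, which encodes the matrix protein fibronectin, had an FPKM of 83.7 in vector, 228 in ERG, 53.4 in mAKT and 23.8 in ERG+mAKT cells. AXL, a receptor tyrosine kinase, had values of 34.5, 82.4, 29.3 and 17.8. SPARC, a matrix glycoprotein, had values of 31.6, 67.5, 12.2 and 15.4. The order of the 4 lines in FN1 and AXL was that of VIM. The fibrillar collagen genes COL1A2 and COL3A1 were at or near 0 in all lines.

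In the epithelial transcription factor list, 4 of 11 genes were called higher in ERG+mAKT than in ERG cells and 2 of 11 in ERG+mAKT than in mAKT cells. All 11 of its genes passed the filter. Against ERG cells the 4 were GRHL1, GRHL3, ELF3 and KLF4, beside 2.02% of all genes called higher, and none was lower. The median log2 ratio was 0.73, with 9 genes above 0 and 2 below, among them FOXA1 at -0.43. Against mAKT cells the 2 were GRHL3 and ELF3, beside 2.03% of all genes, with a median of 0.26 and with OVOL2, TP63 and FOXA1 below 0. ELF3, an epithelial ETS factor, had an FPKM of 2.26 in vector, 5.81 in ERG, 5.57 in mAKT and 23.4 in ERG+mAKT cells, and it was also called for ERG and for mAKT over vector, where 3.58% and 1.14% of all genes were called higher. KLF4 had values of 6.81, 3.90, 6.95 and 12.7, and GRHL1 had 1.76, 1.06, 3.20 and 5.42. TP63, the basal epithelial factor, had values of 36.3, 21.3, 39.2 and 38.0, with ERG cells the lowest. OVOL2, the paralog of OVOL1, had an FPKM between 6.27 and 8.34 in the 4 lines.

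The epithelial adhesion and polarity list differed little between lines, and 16 of its 18 genes passed. CLDN1, a claudin of tight junctions, was the only gene called, higher in ERG over vector and in ERG+mAKT over mAKT. Over all genes tested 3.58% and 2.03% were called higher in these comparisons. The FPKM of CLDN1 was 5.11 in vector, 13.3 in ERG, 10.7 in mAKT and 26.3 in ERG+mAKT cells. CDH1, the E-cadherin gene, had values of 33.7, 41.2, 43.0 and 44.9, so the line with the most CDH2 did not have the least CDH1. For mAKT over vector 16 of the 16 genes lay above 0, as did 54.7% of all genes, with a median of 0.26. The rise was not particular to mAKT. In ERG against vector cells 14 of the 16 lay above 0 and 2 below, where 48.1% of all genes lay above 0. The list had a median of 0.34 there.

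Of the other EMT transcription factors 10 of 16 passed. The only call was FOSL1, lower in ERG+mAKT than in ERG cells with a log2 ratio of -1.35, beside 2.47% of all genes called lower. FOSL1 encodes the AP-1 subunit FRA1, and its FPKM was 119 in vector, 200.3 in ERG, 100.4 in mAKT and 78.1 in ERG+mAKT cells. TWIST2 had values of 18.1, 20.1, 12.5 and 12.4, above its paralog TWIST1 in each line on this per-length scale. HMGA2 had 55.3, 67.6, 64.0 and 36.9, and ETS1 had 21.0, 25.0, 20.7 and 13.5. PRRX1 and GSC were listed at 0 in all lines.

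All 6 of the transcripts that ESRP1 and ESRP2 splice passed the filter, and none was called in any comparison. CD44 had an FPKM between 88.5 and 125, and CTNND1 between 48.2 and 56.7. Gene FPKM says nothing of their isoforms, which were not analysed here. Of the intermediate filament partners of vimentin, PLEC, the linker plectin, had an FPKM between 143 and 184, while DES, GFAP and PRPH were at most 0.118. MIR205HG, the host of a microRNA that targets ZEB1 and ZEB2, had values of 228, 373, 287 and 274, and MIR141 was listed at 0 in all lines. MIR200A, MIR200B, MIR200C and MIR429 were listed at 0 in at least 1 line each, so no fold is given for them.

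**Figure D3:**
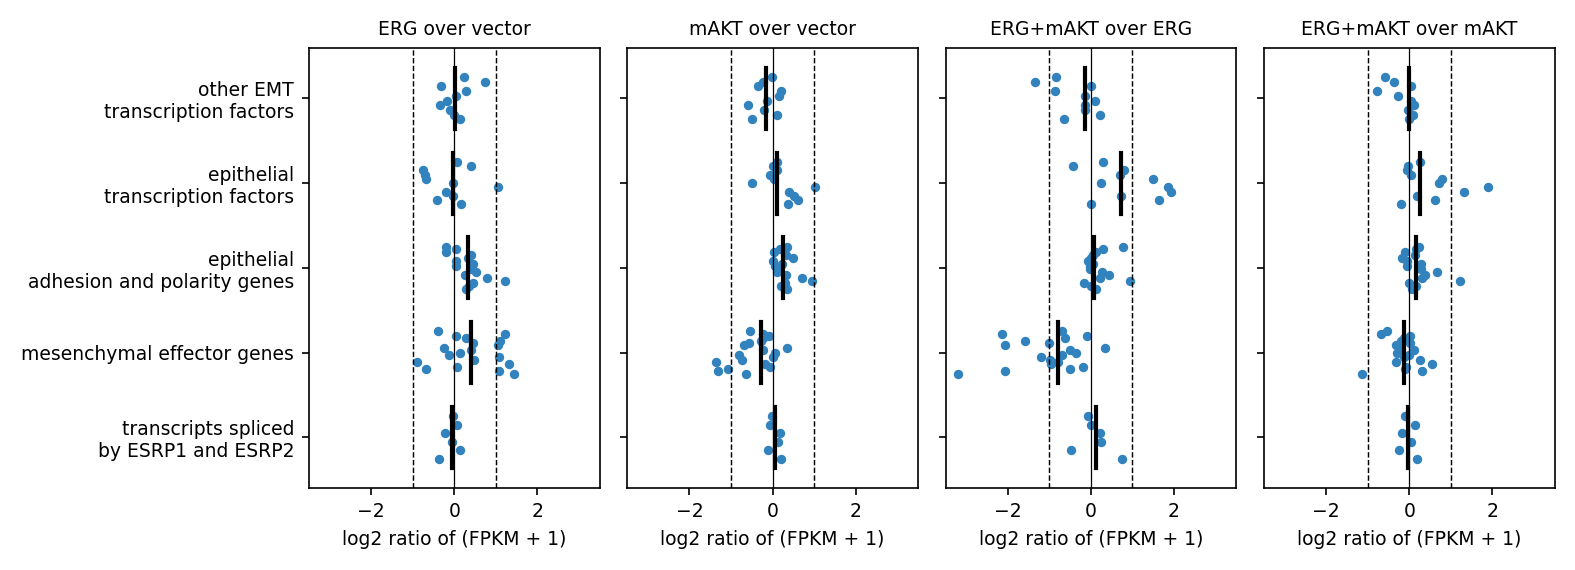
Log2 ratio of (FPKM + 1) of the genes of 5 lists in the 4 comparisons, 1 point per gene that passed the filter, with the median as a black bar and 2-fold as dashed lines. For ERG+mAKT over ERG the epithelial factors have a median of 0.73 and the mesenchymal effector genes a median of -0.80.

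The next question was whether chromatin at these genes differed between the lines. Every member had an ATAC peak within 20 kb in each of the 3 lists, where 87.2% of all genes did with ERG, 86.2% with mAKT and 81.3% with both. Within 1 kb of the gene start, 9, 9 and 8 of the 10 genes had a peak, against 59.8, 58.7 and 54.6%. The lists hold 63354, 57999 and 42081 peaks, so a peak is easiest to find in RWPE1-ERG cells. Their median fold enrichments were 6.4, 5.3 and 5.5, so enrichments of the 3 lists are not on the same scale. The called width of a peak at the same place also differed between lists.

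At VIM the same 2 places were open in each list. Only the RWPE1-ERG+mAKT list also had peaks 10.6 kb downstream of the start (fold enrichment 3.73) and 14.2 kb upstream (2.34). The region over the first part of the gene had a fold enrichment of 3.97 in ERG, 4.20 in mAKT and 3.48 in ERG+mAKT cells. The upstream region that holds the ERG peak reached 6.85, 7.29 and 6.92. In mAKT cells it was split into peaks of 451 bp (7.29) and 294 bp (3.05). It was a single peak of 1702 bp in ERG and of 1553 bp in ERG+mAKT cells. ERG+mAKT cells had the lowest VIM RNA. Their upstream enrichment lay between those of the other 2 lines, without allowance for the different medians of the lists or the unlike widths. CDH2 was open over its start in all 3 lists, with 3.49, 3.73 and 3.79, while its RNA differed 12.1-fold between ERG and mAKT cells. A CDH2 peak inside the gene, 157 kb from the start (4.56), was called in ERG+mAKT cells only.

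ZEB1 was open over its start with 6.75 in ERG, 5.75 in mAKT and 5.97 in ERG+mAKT cells, although its FPKM was under 1 in each. ZEB2 had no ATAC peak within 1 kb of its start in any list, as had 37.8% of all genes, and an intronic peak about 130 kb from the start in each. SNAI2 had enrichments of 9.26, 6.50 and 6.23 over its start and TWIST1 had 4.29, 4.29 and 4.04. SNAI1 had 8.32, 6.17 and 6.52 at its start. ESRP1 had 7.30, 5.59 and 6.74 at its start, and ESRP2 had 3.43, 2.82 and 3.02.

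At OVOL1 the start was covered in RWPE1-ERG (fold enrichment 4.54) and RWPE1+mAKT cells (4.07), and no peak lay within 1 kb of it in RWPE1-ERG+mAKT cells, the line with the most OVOL1 RNA. The same pattern of calls was found at 3.52% of all genes. The peak in the gene, about 6 kb from the start, had an enrichment of 7.72 in ERG, 5.24 in mAKT and 9.03 in ERG+mAKT cells. Its called width was 801, 855 and 325 bp in the same order. The 200 bases before the start of VIM are shown because this start lay beside the open chromatin and the vector H3K27me3 region described here. They hold none of the searched sequences, so no letter is in capitals. The shorter GGAA, which was not searched alone, occurs in them on both strands.
VIM promoter, chr10:17270040-17270239, plus strand: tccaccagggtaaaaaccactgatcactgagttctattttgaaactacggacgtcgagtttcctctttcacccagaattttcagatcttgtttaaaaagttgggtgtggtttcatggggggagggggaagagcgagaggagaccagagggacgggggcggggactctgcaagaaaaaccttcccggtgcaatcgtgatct
Within 250 bases before to 50 after the start, CAGGTG was present at ZEB1, SNAI1, ESRP1 and ESRP2, 4 of the 10 genes, beside 20.8% of 22377 promoters of that length. ZEB1 held it 3 times and ESRP1 held it 2 times. The ETS core AGGAAG was in those of ZEB1, SNAI2, TWIST1 and ESRP1, 4 of the 10 genes, beside 32.9% of all promoters. TGAGTCA was in none of the 10, as against 3.9% of all promoters, and the longer GGAAGGAA was also in none, as against 3.45%. CCGGAA was in that of ZEB1, beside 20% of all promoters. CAGGAA was in those of ZEB2 and ESRP1, beside 26%.

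H3K27me3, which Polycomb complexes place on silent genes, was read as the share of each gene's window (the gene and 20 kb to either side) under called regions. The 3 lists differ in size and depth, with 492265 regions in vector, 228233 in ERG and 252784 in ERG S96E cells, from 19444504, 16513053 and 26454542 ChIP reads. The median share over all genes was 5.15% in vector, 1.32% in ERG and 2.75% in ERG S96E cells, and the share was lower in ERG than in vector cells at 86.1% of all genes and at 7 of the 10 members. With the same number of regions taken from each list, those of lowest p-value, it was lower at 49.4% of all genes and at 5 members. The direction turned at SNAI1, with 3.58% in vector and 5.03% in ERG cells, and at OVOL1, with 3.98 and 6.41%. It stayed lower in ERG cells at VIM, CDH2, SNAI2, ESRP1 and ESRP2. With regions of a fold enrichment of at least 2 it was lower at 44.6% of all genes and at VIM, CDH2, SNAI1, SNAI2 and OVOL1. Regions lay within 20 kb of 10, 7 and 8 members, against 96.2, 69.1 and 73.7% of all genes. Within 1 kb of the start they lay at 3, 3 and 6 members, against 27.1, 18.2 and 26.1%.

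VIM was among the genes that had regions in vector cells only. There 11 regions covered 11.0% of the VIM window, with a highest fold enrichment of 2.30, and 1 of them, from 17268201 to 17270047 on chromosome 10, ended 193 bases before the start. In ERG and in ERG S96E cells no region lay within 20 kb of VIM. ESRP2 showed the same pattern with 4 regions and 2.03% of its window, and 17.7% of all genes did. The vector share at VIM was still 5.64% when only regions with a fold enrichment of at least 2 were counted, and 0 for ESRP2. None of the VIM regions had a q-value of 0.01 or below, as only 29 regions of the whole vector list had. The −log10 p-values that the peak caller gave the VIM regions lay between 1.02 and 1.89, so all 11 were weak calls.

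ZEB2 carried the largest region. In ERG S96E cells it spanned chr2:145264952-145284329, over the gene start, with a fold enrichment of 5.90. Regions also lay over or next to the start in ERG cells (145275694 to 145281716, fold enrichment 3.02) and in vector cells (145274763 to 145277673, 2.13). The share of the ZEB2 window was 16.3% in vector, 17.2% in ERG and 17.8% in ERG S96E cells, and 10.3, 12.9 and 14.7% with regions of a fold enrichment of at least 2. ZEB1 had shares of 10.2, 13.2 and 10.8%, which were 3.86, 5.02 and 5.85% with that limit. In ERG S96E cells a region from 31609138 to 31613965 on chromosome 10, just inside the gene, had a fold enrichment of 4.06. ZEB1 thus had open chromatin over its start and an H3K27me3 region beginning 993 bases into the gene, in lists from different lines.

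TWIST1 and OVOL1 had the largest shares in ERG S96E cells. TWIST1 had 11.5% in vector, 18.5% in ERG and 26.9% in ERG S96E cells. The vector share of TWIST1 was 6.13% with equal numbers of regions, and with a fold enrichment of at least 2 its shares were 1.79, 7.27 and 22.8%. OVOL1 had 6.53, 6.41 and 20.7%, which were 3.61, 0.963 and 17.6% with that limit. The order of TWIST1 was the same in each setting, and the vector and ERG shares of OVOL1 changed places between them. At OVOL1 a region from 65554589 to 65557310 on chromosome 11, which begins 55 bases into the gene, had a fold enrichment of 3.72 in ERG S96E cells. No H3K27me3 region of the other 2 lists lay within 1 kb of the OVOL1 start. Of all genes 28.7% had at least a doubling of a share above 0 in ERG S96E over ERG cells, as 3 members had, CDH2, SNAI2 and OVOL1, and 62.5% had a larger share, as 7 of the members had. SNAI1 had 5.08, 5.03 and 5.59%, and a region near its start in each list.

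CDH2, SNAI2 and ESRP1 had smaller shares, and with a fold enrichment of at least 2 none of the 3 had a share in ERG cells. CDH2 had 3.91% in vector, 0.333% in ERG and 0.964% in ERG S96E cells, and in ERG S96E cells a region with a fold enrichment of 2.92 lay 475 bases into the gene. SNAI2 had 5.75, 1.37 and 4.01%. ESRP1 had 3.72, 0 and 0.196%. Regions with a q-value of 0.01 or below were found only in ERG S96E cells, 1 each at ZEB1, ZEB2, TWIST1 and OVOL1, and that list has 3413 such regions in all, against 39 in ERG cells.

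**Figure D4:**
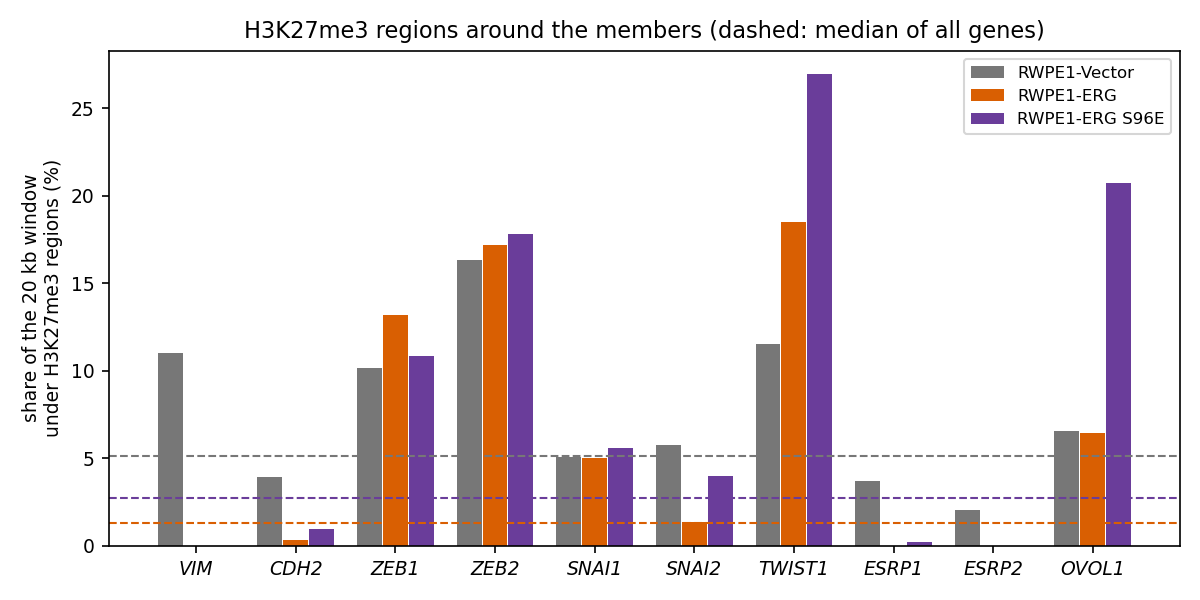
Share of each gene's window, the gene and 20 kb to either side, under H3K27me3 regions in percent, as bars for RWPE1 cells with vector, ERG or ERG S96E (1 library each, no error bar); dashed lines are the medians of 22377 genes in the same colours. VIM has a bar in vector cells only, and TWIST1 and OVOL1 have their highest bars in ERG S96E cells.

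ERK2 was found at 8 of the 10 genes in vector cells, all but VIM and CDH2, with 30 peaks in all, against 64.9% of all genes. In ERG cells it was found at VIM, ESRP1 and ESRP2, with 4 peaks, against 21.2% of all genes. The vector list holds 41276 peaks and the ERG list 5721, from 8393459 and 15020233 ChIP reads. The larger list thus came from fewer reads, and the part of depth was not tested. The ERK2 peak at VIM in ERG cells lay 1.20 kb upstream of the start with a fold enrichment of 3.31. In vector cells the highest enrichment was 5.33, at a peak 4.35 kb downstream of the SNAI2 start, with a q-value of 0.00353. It was the only ERK2 peak at these genes with a q-value of 0.01 or below. The ERK2 peak of ERG cells and the ERG peak of RWPE1-ERG+mAKT cells were not at the same place near VIM. They come from different lines, so whether ERK2 and ERG share a site in 1 line cannot be read from them.

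**Figure D5:**
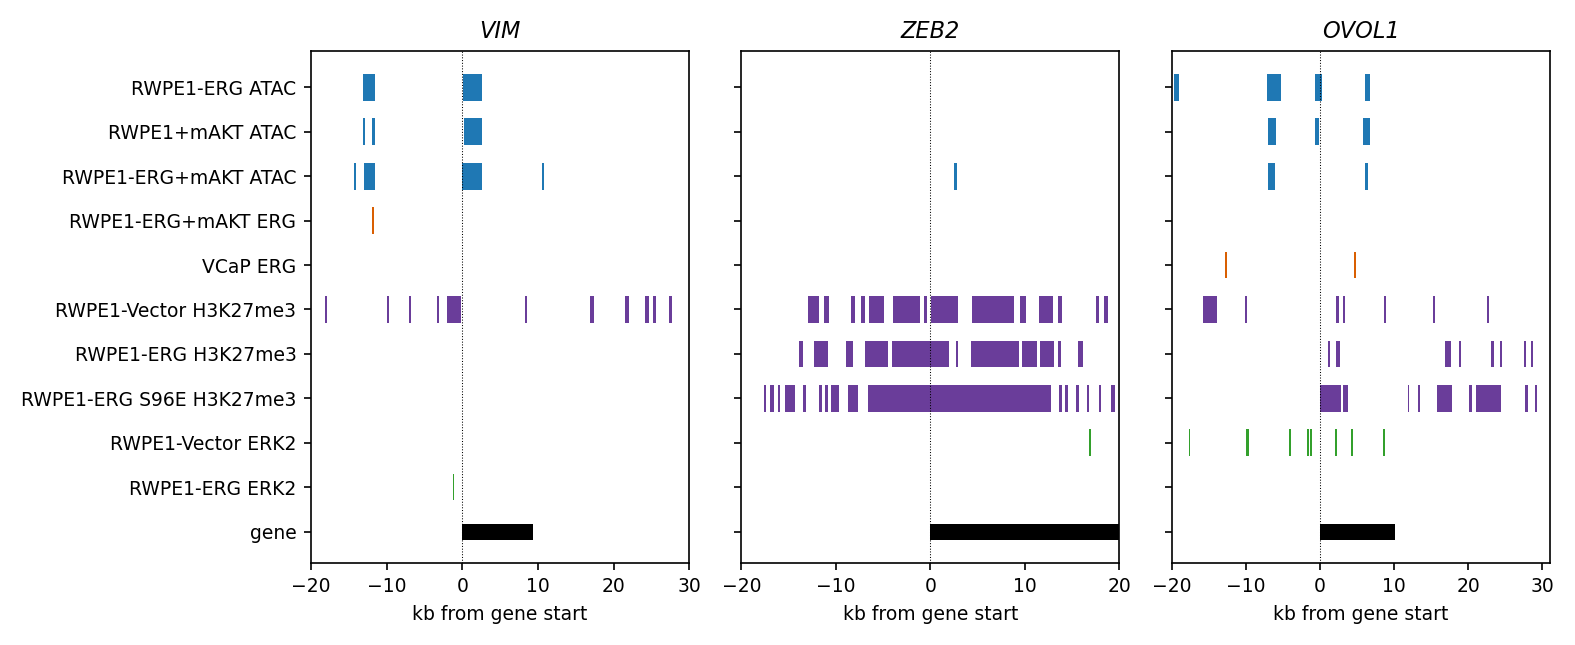
Peaks of the 10 lists around VIM, ZEB2 and OVOL1, in kb from the gene start with the gene running to the right, drawn at least 0.25 kb wide; blue is ATAC, orange ERG, purple H3K27me3 and green ERK2, and the black bar is the gene (that of ZEB2 runs on past the edge). The ERG peak of VIM lies 11.8 kb upstream within open chromatin, and purple bars at VIM appear in the vector row only.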

How the data were processed

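Values came from the deposited Cuffdiff table and MACS2 peak lists. The authors aligned RNA-seq reads with TopHat2 and deposited FPKM pooled over 3 libraries per line, from poly(A)-selected RNA. The table's columns of fold changes, test scores, p-values and q-values for pairs of lines were not used. ChIP and ATAC reads were mapped by the authors with Bowtie2 (hg19), and peaks were called with MACS2 after duplicate removal, pooling 3 ChIP experiments into 1 library. The deposited lists give a pileup signal, a fold enrichment ratio, a −log10 p-value and a −log10 q-value for each peak. Read depth is given for the H3K27me3 and ERK2 lists only.

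Members, lists and comparisons were chosen with earlier results of these data known. A gene was called at 2-fold on log2(FPKM + 1) among genes reaching an FPKM of 1 in at least 1 of the 4 lines. A peak counted with an overlap of at least 1 bp with the canonical transcript of GENCODE release 44 mapped to GRCh37, widened by 20 kb. Of the table's genes 22377 had such a span by symbol, and 0 peaks lay past the end of a chromosome of the reference. Motifs were searched on both strands. Named genes were the members, ERG and AKT1, up to 4 genes of each list with the largest ratio among those with an FPKM of at least 5, and the 5 genes most like VIM. Other genes of the lists, VIM-AS1 and AP5B1 were named after their values were seen. With 1 value per line, no test was run. The table had 0 columns of single libraries. A list attached to the VCaP input and a list attached to the LY294002-treated VCaP ERG ChIP do not match their labels, and these 2 lists were not used. Overlaps and calls were tested on simulated data. Python 3.11.15, numpy 2.4.6, pandas 2.3.3 and pysam 0.24.0 were used. Some genes and sequences of these lists are not reported here.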

Additional observations from a re-analysis of the deposited data

Results flagged for a closer look

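In 4 of the 8 genes that passed the filter, the log2 ratio of ERG had opposite signs without and with mAKT, as in 42.7% of all genes tested. The difference, with mAKT minus without, was -0.86 for VIM, -0.31 for TWIST1, -0.29 for ESRP1 and 0.63 for OVOL1. With 1 pooled value per line the difference was not tested. A difference of at least 2-fold toward a lower ratio with mAKT was found at 2.63% of all genes. Of the members only CDH2 reached it, just past the limit, and its ratio was above 0 both without and with mAKT. With upper quartile scaling the sign of TWIST1 for ERG over vector turned from 0.05 to -0.01, so 3 of the 8 genes had opposite signs, beside 43.2% of all genes. The difference of CDH2 was then -0.92, and no member reached 2-fold.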

How the results depend on the processing

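No paired analysis was possible because the expression table holds 1 pooled value per line and no column of a single library. Leaving out each replicate and the fit with the replicate block were not run for the same reason. With a pseudocount of 0.1, 865 genes were called for ERG over vector in place of 576, 551 for ERG+mAKT over mAKT in place of 367, and 1 member for ERG+mAKT over mAKT, OVOL1, in place of 0. With a limit of 1.5-fold, 1291, 517, 1401 and 872 genes were called in the 4 comparisons in the order of the text, in place of 576, 248, 569 and 367. The members called were then 5 in place of 3 for ERG+mAKT over ERG and 2 in place of 0 for ERG+mAKT over mAKT. With scaling by upper quartiles 0 members were called for ERG over vector in place of 1, since CDH2 fell under the limit. Of the 6 members with an ERG peak in RWPE1-ERG+mAKT cells, 3 had it within 20 kb of the start. At a q-value of at most 0.01 the number of members was 0 for that list, 1 for VCaP ERG, 0, 0 and 4 for H3K27me3 in vector, ERG and ERG S96E cells, and 1 and 0 for ERK2 in vector and ERG cells. The other 73 alternatives for counts kept them within 1.5 times, among them the whole GENCODE gene span, chosen after the data were seen. Of the alternatives for single genes, 31 moved a value by over 1.5 times and 110 did not. Among the log2 ratios 1 fell under the 2-fold limit, CDH2 for ERG over vector (0.99 with upper quartile scaling). With a pseudocount of 0.1, 3 passed it, SNAI1 for ERG+mAKT over ERG (1.13), OVOL1 for ERG+mAKT over mAKT (1.02) and, below the FPKM filter, ZEB1 for mAKT over vector (-1.76). With upper quartile scaling 2 ratios that were not called changed sign for ERG over vector, TWIST1 (0.05 to -0.01) and ZEB2. The H3K27me3 lists differ in depth and length, and the part of depth in their differences was not tested.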
